A study of Mus musculus with 18 samples.

Results

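The comparison is between the colon of WT mice with colitis-associated cancer (CAC) and the colon of naive WT mice, by RNA-Seq. Its members were chosen by the genotype and treatment labels: WT mice labelled AOM-DSS (libraries R4, R5 and R6, here CAC mice 4, 5 and 6) and WT mice labelled Control (R1, R2 and R3, here naive mice 1, 2 and 3). They are 6 of the 9 mice of the series, or 12 of its 18 lane samples. The other 3 mice, Claudin-2TG AOM-DSS, were not compared here. The study asks how claudin-2, a tight junction protein, bears on colitis and on the cancer that follows it. CAC mice were WT mice given a single dose of 10 mg/kg azoxymethane (AOM), a carcinogen, and 3 cycles of 2.5% dextran sulfate sodium (DSS), which injures the colon epithelium. The same protocol text is attached to the Control samples, so the naive group rests on the treatment label alone. Per the study's methods the background was C57BL/6, and neither group carries a transgene. Age is not given in the sources used here, nor is the share of tumour and of surrounding mucosa in the piece of colon that was taken.

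AOM leads to DNA damage in colon crypts, and repeated injury by DSS lets damaged crypts expand into tumours, most of which carry an active Wnt pathway. Wnt signals keep crypt cells dividing, and a cell with an overactive pathway makes large amounts of the pathway's own secreted inhibitors. The colon epithelium otherwise absorbs water and salt, secretes mucus and oxidises short-chain fatty acids, above all butyrate, in its mitochondria. Under it lie fibroblasts, vessels, immune cells and, further out, smooth muscle with enteric neurons.

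Total counts on genes were 19598540, 19973030 and 22103851 in naive mice 1, 2 and 3 and 19143664, 22262546 and 14142711 in CAC mice 4, 5 and 6, each summed over 2 lanes. Levels are library-scaled counts (CPM), computed with edgeR's TMM factors over the 6 mice, always in the order of naive mice 1, 2 and 3 and of CAC mice 4, 5 and 6. Where a library has no count for a gene, a level under 3 counts remains possible from counting error alone. Averaged over a group, 3 counts in each library are 0.146 CPM in naive and 0.168 CPM in CAC mice. Mitochondrial genes took 3.11%, 3.50% and 2.86% of the counts in naive mice and 4.69%, 3.54% and 4.49% in CAC mice. The CAC mice were further apart than the naive mice. On the first principal component, which held 67.8% of the variance, naive mice lay at -45.97, -58.43 and -47.0 and CAC mice at 15.9, 61.2 and 74.3. CAC mouse 4 thus lay nearest to the naive mice, and on the second component (11.99%) it stood alone at 48.9, against -18.1 to 0.112 in the other 5. The biological coefficient of variation was 0.146 in naive mice and 0.270 in CAC mice. *Xist*, which only female cells make, stood at 219 CPM in naive mouse 1 and at 0.210 CPM or less elsewhere. None of 4 Y chromosome genes exceeded 0.204 CPM in that mouse. The methods describe age- and sex-matched mice, and by these RNAs sex differed within the naive group.

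The libraries carried the markers of colon. *Epcam*, a cell adhesion protein of epithelium, stood at 2282, 2399 and 2456 CPM in naive mice and 2821, 2717 and 2430 CPM in CAC mice. The 12 members of a distal colon list summed to 12792, 12285 and 12765 CPM in naive and 12815, 8398 and 7248 CPM in CAC mice, led by *Zg16*, a lectin of goblet cells. Of all genes tested with edgeR, 8.04% were called higher in CAC mice and 6.92% lower, at an adjusted p under 0.05. Among 12 distal colon genes, 12 could be tested, 0 were called higher and 3 lower (25.0%), and the median log2 fold change was -0.30 (called without mice 1 to 6 in turn: 0, 0, 0, 5, 1 and 2). Stomach genes summed to 0.662, 1.28 and 0.969 CPM in naive and 1.74, 2.45 and 5.81 CPM in CAC mice, with *Gkn2* and *Atp4b* at 0 in all 6 mice, and liver genes to 98.01, 125 and 78.97 CPM in naive and 87.8, 89.4 and 73.8 CPM in CAC mice, with *Fgb* and *Fga* at 0. The tested stomach genes were 1 of 10, and 0 of them were called higher and 0 lower, at a median log2 fold change of 1.16 (called without mice 1 to 6 in turn: 0, 0, 0, 1, 0 and 0). Of 8 liver genes, 3 were tested and 0 called, also in each fit without 1 mouse, with a median log2 fold change of -0.23. Among 10 proximal colon genes, 7 could be tested, 0 were called higher and 0 lower, and the median log2 fold change was -0.38 (called without mice 1 to 6 in turn: 0, 0, 0, 0, 0 and 1). The tested small intestine genes were 6 of 12, and 1 of them was called higher and 1 lower, at a median log2 fold change of 0.18 (called without mice 1 to 6 in turn: 0, 0, 0, 2, 2 and 2). Of 10 pancreas acinar genes, 1 was tested and 0 called, also in each fit without 1 mouse, with a median log2 fold change of -0.05. Among 10 skeletal muscle genes, 3 could be tested, 1 was called higher and 0 lower, and the median log2 fold change was 0.64 (called without mice 1 to 6 in turn: 1, 0, 0, 2, 1 and 1). The tested blood red cell genes were 3 of 7, and 0 of them were called higher and 0 lower, at a median log2 fold change of -0.12 (called without mice 1 to 6 in turn: 0, 0, 0, 1, 0 and 0). Of 12 immediate early genes, 11 were tested, with 2 called higher, 0 called lower and a median log2 fold change of -0.08 (called without mice 1 to 6 in turn: 1, 1, 1, 3, 1 and 1). The last are induced within minutes by stress and handling. Genes of fat tissue were high in naive mouse 2 alone, at 36.8, 201 and 38.5 CPM in naive and 21.1, 55.96 and 11.6 CPM in CAC mice, and their part in the results was not tested. Of 8 adipose genes, 7 were tested and 0 called, also in each fit without 1 mouse, with a median log2 fold change of -2.21.

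The colon of CAC mice differed widely from naive colon, and the largest changes were genes that naive colon hardly expressed at all. These encode secreted Wnt inhibitors, proteases, keratins of squamous epithelium, the metallothionein of *Mt4* and Paneth cell products. Many genes of macrophages, T cells, MHC class II and matrix metalloproteinases rose with them. Most of those of T cells and metalloproteinases had a naive mean under 1 CPM. Part of the transporters of the surface epithelium fell, as did part of the enzymes of the citrate cycle and of fatty acid oxidation and part of the enteric neuron genes. Of 15437 genes tested with edgeR, 2310 were called at an adjusted p under 0.05 (15%), 1241 higher in CAC mice (8.04%) and 1069 lower (6.92%). All 3 CAC mice lay above all 3 naive mice in 2965 genes (19.2%) and below them in 2916 (18.9%). The groups did not overlap in 2308 of the 2310 genes called, so a lack of overlap adds little to a call. A two-sided exact permutation test of a single gene in 3 mice against 3 cannot go below p = 0.1. Among genes called, changes upward were larger, since 876 rose and 413 fell at least 2-fold. The median log2 fold change was 1.62 among genes called higher, -0.83 among genes called lower and 0.02 over all genes tested. Of the genes called higher, 362 had a naive mean under 1 CPM and can enter the test through their counts in CAC mice. With a naive mean of at least 1 CPM, an alternative chosen after seeing the data, 879 genes were higher and 1043 lower. The number of genes called rested on single mice. It was 631, 135 and 404 without naive mouse 1, 2 or 3 and 4080, 1245 and 1062 without CAC mouse 4, 5 or 6. Of the 2310 genes, 2175 lost the call without naive mouse 2 and 80 without CAC mouse 4. For each gene list the number of members called is therefore also given without mice 1 to 6 in turn, in fits that may test more or fewer members.

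**Figure D1:**
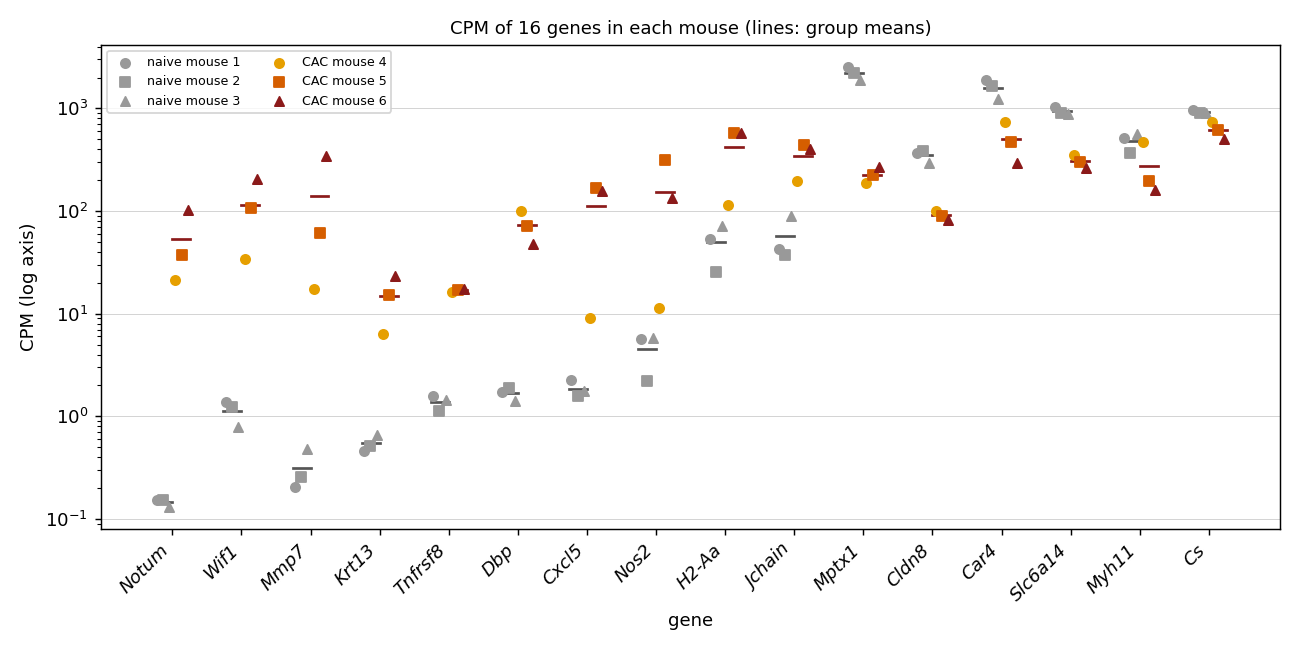
CPM on a log axis of 16 genes in naive mice 1, 2 and 3 (grey) and CAC mice 4, 5 and 6 (orange to dark red), with a line at each group mean. *Notum* lies between 0.132 and 0.154 CPM in naive mice and between 21.2 and 103 CPM in CAC mice, while *Nos2* and *Cxcl5* in CAC mouse 4 lie far below CAC mice 5 and 6.

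*Mt4* (chromosome 8, 94137204 to 94139031) is a metallothionein, a small metal-binding protein, best known from stratified squamous epithelium. It had 0.0509, 0 and 0.0440 CPM in naive mice and 29.2, 53.2 and 147 CPM in CAC mice, with 2 counts in all over the naive mice (log2 fold change 10.94, adjusted p = 0.00586; ratio of counts 2140, 95% counting interval 592 to 17678). *Prss22*, an epithelial serine protease, had 0, 0 and 0.0440 CPM and 4.28, 37.1 and 49.04 CPM (log2 fold change 10.38, adjusted p = 0.0129; ratio 1790, 95% counting interval 321 to 70727). *Sp5*, a transcription factor induced by Wnt, had 0, 0 and 0.0440 CPM and 4.33, 14.2 and 34.4 CPM (log2 fold change 9.61, adjusted p = 0.00910; ratio 991, 95% counting interval 177 to 39190). *Defa24*, one of the α-defensins made by Paneth cells, had 0, 0 and 0.0881 CPM and 4.07, 9.26 and 110.1 CPM (log2 fold change 10.05, adjusted p = 0.0293; ratio 1038, 95% counting interval 287 to 8574). Its level differed among CAC mice more than that of *Mt4*, *Prss22* or *Sp5*, and its near-identical paralogs can share reads. *Prss56*, *Irx5*, *Muc6* and *Fgf3* had 0 counts in all 3 naive mice. Against a floor of 3 counts in each naive library they were at least 25.9-, 26.2-, 21.1- and 16.4-fold higher in CAC mice, in that order. In CAC mice *Prss56* had 2.96, 5.72 and 2.66 CPM, *Irx5* 1.69, 2.86 and 6.94 CPM, *Muc6* 1.69, 2.81 and 4.76 CPM and *Fgf3* 0.846, 0.953 and 5.39 CPM. The lowest of these bounds with 1 CAC mouse left out were 19.2 for *Prss56* (without CAC mouse 5) and 15.6, 15.4 and 6.15 for *Irx5*, *Muc6* and *Fgf3* (without CAC mouse 6). *Muc6* is a gel-forming mucin of gastric glands, and *Fgf3* a growth factor of the embryo. *Wnt10a*, *Mmp7* and *Notum* are also among the 12 genes with the largest increase and are described with their lists.

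Genes with the largest decrease include transporters and enzymes of the epithelium and genes of neurons. *Mptx1* (chromosome 1, 174330518 to 174332873), a mucosal pentraxin secreted by colon epithelium, went from 2555, 2196 and 1879 CPM in naive mice to 188, 224 and 267 CPM in CAC mice (log2 fold change -3.29, adjusted p = 4.4e-04). All 3 CAC mice lay close together and about 10 times below the naive mice. *Slc37a2*, a transporter of phosphorylated sugars, had 643, 434 and 258 CPM and 56.8, 45.4 and 24.9 CPM (log2 fold change -3.39, adjusted p = 0.00834). *Trpm6*, the magnesium channel of the colon's surface cells, had 264, 209 and 179 CPM and 42.7, 19.4 and 12.3 CPM (log2 fold change -3.13, adjusted p = 0.0116). *Slc30a10*, a manganese exporter, had 18.4, 24.9 and 13.1 CPM and 3.59, 0.998 and 0.210 CPM (log2 fold change -3.52, adjusted p = 0.0265), with CAC mouse 4 between the naive mice and CAC mice 5 and 6. *Dpyd*, which degrades pyrimidines, fell by 2.93 on the log2 scale, from 14.8, 20.5 and 18.8 to 3.12, 2.59 and 1.26 CPM. *Galnt17*, an enzyme family member of O-glycosylation, fell by 3.56 and the prolactin receptor gene *Prlr* by 3.21, both from under 10 CPM. *Dbh*, *Slc18a3* and *Nmu*, genes of neurons that make noradrenaline, acetylcholine and a neuropeptide, fell by 3.18, 2.66 and 2.80. *Rims4* and the clock gene *Arntl* make up the 12. Of the 18 called genes whose fold change or test is given, *Mt4*, *Prss56*, *Muc6*, *Mptx1*, *Dpyd*, *Galnt17* and *Prlr* were called in all 6 fits that left out 1 mouse, and the others lost the call in at least 1, namely 6 without naive mouse 1, 11 without naive mouse 2, 8 without naive mouse 3, 2 without CAC mouse 5 and 1 without CAC mouse 6, with a highest adjusted p of 0.130 for *Defa24* without naive mouse 3.

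**Figure D2:**
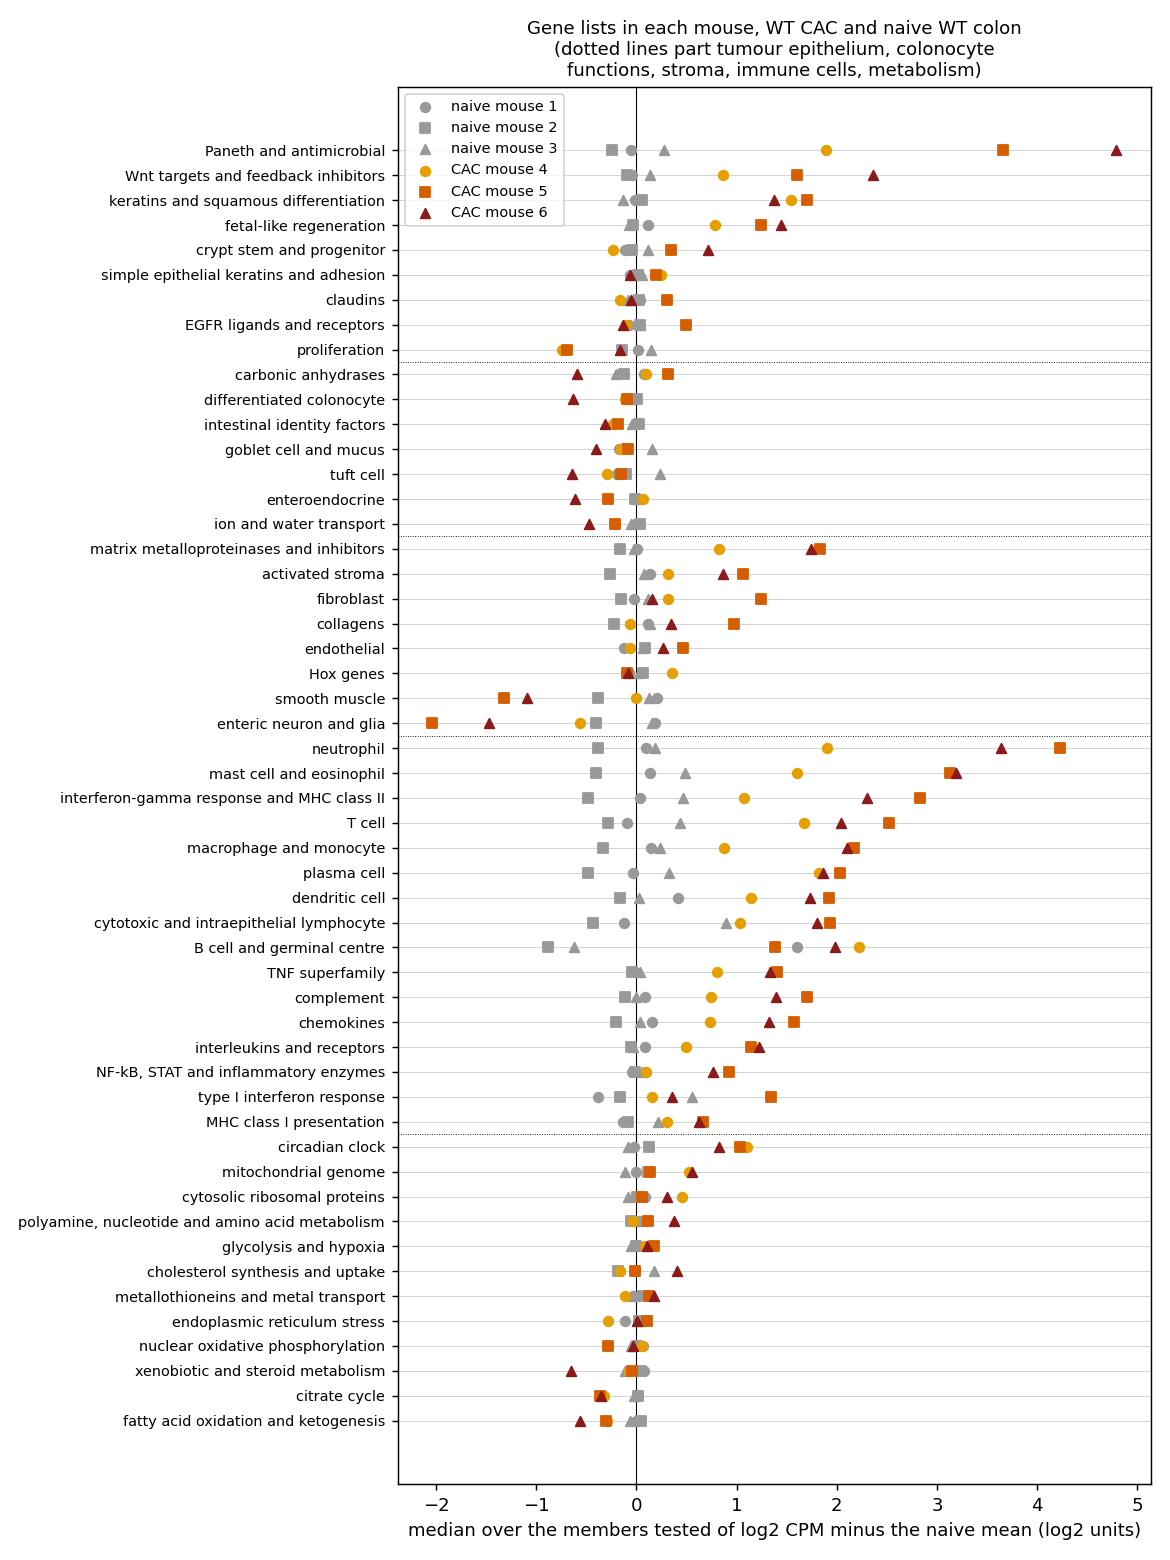
For each gene list, the median over the members tested of log2 CPM minus the mean of the naive mice, in log2 units, with 1 symbol for each of naive mice 1, 2 and 3 (grey) and CAC mice 4, 5 and 6 (orange to dark red). For neutrophil genes CAC mice 4, 5 and 6 lie at 1.90, 4.23 and 3.64, for circadian clock genes at 1.10, 1.03 and 0.83.

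In the tumour epithelium lists, part of the Wnt targets and feedback inhibitors rose. The tested Wnt targets and feedback inhibitors were 29 of 31, and 16 of them were called higher and 0 lower, at a median log2 fold change of 1.80 (called without mice 1 to 6 in turn: 9, 1, 6, 23, 12 and 13). Against this, 8.04% of all genes tested were called higher. Of the 16, 7 had a naive mean under 1 CPM and enter the test through their counts in CAC mice. Among members with a naive mean of at least 1 CPM, an alternative chosen after seeing the data, 9 of 22 were higher. Of all such genes 6.40% were. *Notum* (chromosome 11, 120653788 to 120661175) encodes a secreted enzyme that inactivates Wnt proteins by removing their lipid, and had 0.153, 0.154 and 0.132 CPM in naive and 21.2, 37.2 and 103 CPM in CAC mice (log2 fold change 8.46, adjusted p = 0.00664). *Wif1*, which binds Wnt proteins outside the cell, had 1.37, 1.23 and 0.793 CPM and 34.1, 107 and 207 CPM (log2 fold change 6.68, adjusted p = 0.00806). *Nkd1*, an inhibitor inside the cell, had 7.38, 5.90 and 7.66 CPM and 43.6, 97.3 and 243 CPM (log2 fold change 4.19, adjusted p = 0.0149). In each of the genes CAC mouse 6 was highest and CAC mouse 4 lowest of the treated mice, and all 3 were above the naive mice. The ligand gene *Wnt10a* rose from 2 counts over the naive mice to 3.86, 11.6 and 36.3 CPM (ratio of counts 474, 95% counting interval 131 to 3923). *Axin2*, a widely used Wnt target, had 33.1, 35.5 and 37.7 CPM and 46.5, 66.4 and 119 CPM without overlap, but did not pass the test (adjusted p = 0.0536; adjusted p = 0.00571 without CAC mouse 4). *Ccnd1* (53.1, 63.6 and 67.1 and 54.2, 101 and 97.1 CPM) and *Myc* (49.2, 37.6 and 44.04 and 35.8, 53.9 and 60.7 CPM) overlapped between groups and did not pass either. Without CAC mouse 4 *Ccnd1* passed (adjusted p = 0.00670) and *Myc* did not (adjusted p = 0.0800).

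Of the crypt stem and progenitor genes some rose and some fell. Of 21 crypt stem and progenitor genes, 20 were tested, with 5 called higher, 3 called lower and a median log2 fold change of 0.36 (called without mice 1 to 6 in turn: 4, 3, 3, 14, 4 and 4). Over all genes tested 8.04% were called higher and 6.92% lower. *Prom1*, a surface protein of progenitor cells, rose from 125, 115 and 165 CPM to 316, 451 and 356 CPM, and *Ascl2*, a stem cell transcription factor driven by Wnt, from 10.6, 8.62 and 7.53 CPM to 15.4, 16.02 and 33.8 CPM, by 1.47 and 1.28 on the log2 scale. *Lrig1*, which restrains EGF receptor signals in stem cells, went the other way, with 173, 208 and 209.6 CPM in naive mice and a mean of 92.2 CPM in CAC mice, each below every naive mouse (log2 fold change -1.09, adjusted p = 0.00492). *Aqp4*, a water channel, likewise fell by 1.39. *Lgr5*, the stem cell receptor for R-spondins, had 8.66, 10.7 and 13.5 CPM and 5.66, 14.9 and 25.4 CPM, below all naive mice in CAC mouse 4 and above them in CAC mice 5 and 6, and did not pass the test (adjusted p = 0.533; adjusted p = 0.0486 without CAC mouse 4). Part of the genes of the fetal-like state of a regenerating crypt rose. Among 25 fetal-like regeneration genes, 24 could be tested, 15 were called higher and 0 lower, and the median log2 fold change was 1.09 (called without mice 1 to 6 in turn: 9, 1, 4, 19, 11 and 9). *Anxa1* had 227, 250.1 and 272 CPM and 455, 594 and 553 CPM (log2 fold change 1.10, adjusted p = 0.00763). *Clu* had 81.9, 39.6 and 23.6 CPM and 215, 493 and 636 CPM (log2 fold change 3.21, adjusted p = 0.0196). *Ly6a*, which encodes SCA-1, had 349.5, 287 and 444 CPM and 473, 809.6 and 1002 CPM (log2 fold change 1.08, adjusted p = 0.0422). All 3 were above the naive range in each CAC mouse.

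Paneth cells, which secrete antimicrobial peptides, belong to the small intestine and are absent from most of the normal mouse colon. The tested Paneth and antimicrobial genes were 18 of 28, and 11 of them were called higher and 0 lower, at a median log2 fold change of 4.27 (called without mice 1 to 6 in turn: 4, 1, 2, 14, 5 and 7). The other 10 members of the list had too few counts. Of all genes tested, 8.04% were called higher. The list summed to 1738, 1476 and 1253 CPM in naive and 1723, 1462 and 3713 CPM in CAC mice, led by *Wfdc2*. Its sum was thus above the naive range in CAC mouse 6 alone. Since many members are near 0 in naive mice, the number called depends on the filter, with 3 called without a filter and 5 with at least 10 counts in each library. *Lyz1*, the lysozyme of Paneth cells, had 3.21, 2.87 and 3.88 CPM in naive and 133, 176 and 1044 CPM in CAC mice (log2 fold change 7.08, adjusted p = 0.0125). *Mmp7*, which activates α-defensins, had 0.204, 0.256 and 0.484 CPM and 17.6, 61.2 and 342 CPM (log2 fold change 8.73, adjusted p = 0.0183). *Slpi*, an inhibitor of leukocyte proteases, had 18.3, 23.3 and 32.4 CPM and 147, 140.3 and 157 CPM (log2 fold change 2.58, adjusted p = 0.00159). CAC mouse 6 held most of the *Lyz1* and *Mmp7*, whereas *Slpi* was even across the CAC mice. *Reg3g*, a bactericidal lectin, had 0.764, 0.0513 and 0.881 CPM and 3.22, 40.2 and 217 CPM (log2 fold change 7.21, adjusted p = 0.0378), with CAC mouse 4 nearest to the naive mice. Part of the keratin and squamous genes that could be tested rose as well. Of 24 genes of keratins and squamous differentiation, 13 were tested, with 7 called higher, 0 called lower and a median log2 fold change of 1.37 (called without mice 1 to 6 in turn: 3, 2, 2, 10, 7 and 8). This number too depends on the filter, with 9 called without a filter and 5 with at least 10 counts in each library. *Krt13*, a keratin of mucosal squamous epithelium, had 0.458, 0.513 and 0.661 CPM and 6.29, 15.1 and 23.4 CPM (log2 fold change 4.75, adjusted p = 0.00541). *Krt14*, of basal squamous cells, had 0.764, 1.95 and 1.54 CPM and 12.7, 21.8 and 29.4 CPM (log2 fold change 3.90, adjusted p = 0.00492). *Krt36* rose by 5.26, and *Krt7*, a keratin of simple epithelium on the same list, by 1.05. A list of anal squamous epithelium and skin, which shares *Krt14*, had 2 of 5 tested members called higher (called without mice 1 to 6 in turn: 1, 1, 1, 2, 2 and 2) and summed to 10.2, 10.8 and 9.16 CPM in naive and 22.9, 33.9 and 48.1 CPM in CAC mice, with *Ivl* at 0 in all 6 mice, and its part in the rise of keratins was not tested. Among 13 simple epithelial keratins and adhesion genes, 13 could be tested, 0 were called higher and 1 lower, and the median log2 fold change was 0.12 (called without mice 1 to 6 in turn: 0, 0, 0, 1, 1 and 0). That 1 was *Ocln*, a tight junction protein, with 184, 208 and 175 CPM and 133, 140.2 and 102 CPM.

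Of the genes of dividing cells, a part was lower in CAC colon and 1 was higher. The tested proliferation genes were 40 of 40, and 1 of them was called higher and 10 lower, at a median log2 fold change of -0.51 (called without mice 1 to 6 in turn: 4, 0, 1, 10, 3 and 17). These are 2.5% higher and 25.0% lower, against 8.04% and 6.92% of all genes tested. *Mki67*, expressed in all phases of the cell cycle, had 164, 170.3 and 211 CPM in naive and 88.3, 87.3 and 111 CPM in CAC mice (log2 fold change -0.93, adjusted p = 0.0116). *Kif11*, a motor of the mitotic spindle, had 48.4, 50.3 and 57.03 CPM and 19.2, 26.2 and 30.1 CPM (log2 fold change -1.05, adjusted p = 0.0130). All 3 CAC mice lay below all naive mice in both. *Ccne1*, a cyclin of the entry into S phase, was the member that rose, by 1.19. *Birc5*, which encodes Survivin, had 45.1, 40.7 and 50.7 CPM and 29.02, 29.3 and 45.1 CPM and did not pass the test (adjusted p = 0.183). Of 15 claudins, 12 were tested, with 0 called higher, 3 called lower (25.0%) and a median log2 fold change of 0.08, of the other sign in 5 alternatives (called without mice 1 to 6 in turn: 2, 1, 1, 4, 3 and 2). *Cldn8*, a sealing claudin of the distal colon, had 372, 386 and 292 CPM and 101, 89.8 and 82.4 CPM (log2 fold change -1.94, adjusted p = 0.00159). *Cldn2* had 196, 264 and 249 CPM and 124, 140.4 and 138 CPM (log2 fold change -0.82, adjusted p = 0.0138), and *Cldn23* fell by 0.59. Among 14 EGFR ligands and receptors, 12 could be tested, 1 was called higher and 1 lower, and the median log2 fold change was -0.06, of the other sign with DESeq2 (called without mice 1 to 6 in turn: 1, 1, 1, 4, 1 and 1). At 8.33% each way, these shares were near the 8.04% and 6.92% of all genes, so the 2 genes are not a change of the list. *Ereg*, a ligand, rose from 4.02, 2 and 2.91 to 5.39, 8.62 and 6.80 CPM, and the one lower was *Lrig1*. *Egfr* itself (48.2, 49.6 and 52.8 and 29.3, 56.7 and 46.1 CPM) and *Areg* (61.8, 58.3 and 36.8 and 48.3, 73.8 and 49.5 CPM) overlapped between groups. Of the 27 called genes whose fold change or test is given, *Notum*, *Prom1*, *Lrig1*, *Aqp4*, *Slpi*, *Krt13*, *Krt14* and *Cldn8* were called in all 6 fits that left out 1 mouse, and the others lost the call in at least 1, namely 10 without naive mouse 1, 19 without naive mouse 2, 15 without naive mouse 3, 5 without CAC mouse 5 and 8 without CAC mouse 6, with a highest adjusted p of 0.157 for *Ccne1* without naive mouse 3.

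Of the colonocyte's functions, part of the genes for the transport of salt and water fell and a smaller part rose. Over all genes tested 8.04% were called higher and 6.92% lower. In bulk tissue, fewer colonocytes and less RNA per colonocyte cannot be told apart. The tested ion and water transport genes were 40 of 43, and 5 of them were called higher and 10 lower, at a median log2 fold change of -0.35 (called without mice 1 to 6 in turn: 7, 3, 9, 22, 9 and 11). In 17 members all CAC mice were below all naive mice, and in 7 above them. For all genes tested these shares were 18.9% and 19.2%. Of 12 carbonic anhydrases, 10 were tested, with 1 called higher, 1 called lower and a median log2 fold change of 0.15 (called without mice 1 to 6 in turn: 0, 0, 0, 4, 0 and 2). *Car4*, a carbonic anhydrase on the surface of differentiated colonocytes, had 1886, 1651 and 1228 CPM in naive and 745, 474 and 296 CPM in CAC mice (log2 fold change -1.65, adjusted p = 0.0223). *Aqp8*, a water channel, had 1148, 818 and 608 CPM and 457, 276 and 173 CPM (log2 fold change -1.51, adjusted p = 0.0415). *Slc26a2*, a sulfate transporter that serves mucin sulfation, had 1413, 1055 and 762 CPM and 504, 452 and 283 CPM (log2 fold change -1.38, adjusted p = 0.0218). In each, CAC mouse 6 was the lowest and no CAC mouse reached a naive one. *Slc26a3*, the chloride-bicarbonate exchanger, had 1193, 749 and 695 CPM and 871, 478 and 279 CPM, within the naive range in CAC mouse 4, and passed the test without that mouse (adjusted p = 0.290; adjusted p = 0.0347 without it). *Car1* was higher in CAC mouse 4 than in any naive mouse (1763, 565 and 789 and 1919, 544 and 523 CPM). *Cftr*, a chloride channel, fell by 1.43 and *Scnn1b*, a subunit of the epithelial sodium channel, rose by 1.34, both outside the rule for named genes and picked after their values were seen. *Clca4b*, one of a family of secreted proteins tied to chloride transport, rose from 20.4, 8.15 and 33.7 CPM to 199.7, 1329 and 1360 CPM (log2 fold change 5.53, adjusted p = 0.0170), and its relative *Clca1*, a goblet cell product, fell from 4621, 4365 and 3206 CPM to 2112, 2349 and 1791 CPM (log2 fold change -0.96, adjusted p = 0.0173).

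The shares called higher in the colonocyte, goblet and enteroendocrine lists were near the 8.04% of all genes, so that the single genes higher among them are not a rise of the list. The shares called lower were above the 6.92% of all genes, at 13.9% for colonocyte and 17.4% for enteroendocrine genes. They were also above it for goblet cell genes (3 of 25), tuft cell genes (22.2%) and intestinal identity factors (18.5%). Each of these lower shares rests on 3 to 5 genes and was not tested as a set. Among 37 differentiated colonocyte genes, 36 could be tested, 3 were called higher and 5 lower, and the median log2 fold change was -0.22 (called without mice 1 to 6 in turn: 2, 2, 2, 14, 6 and 4). *Tmigd1*, an adhesion protein of mature enterocytes, fell by 1.86, whereas *Myo1a*, a motor of the brush border, rose by 0.50 and *Krt20*, a keratin of surface cells, stood at 988, 1030 and 1116 CPM and 1038, 1298 and 1069 CPM, overlapping. The tested goblet cell and mucus genes were 25 of 27, and 2 of them were called higher and 3 lower, at a median log2 fold change of -0.25 (called without mice 1 to 6 in turn: 0, 0, 1, 8, 4 and 3). *Muc2*, the main mucin, had 1861, 2362 and 3949 CPM and 2734, 2312 and 2117 CPM and did not pass the test (adjusted p = 0.660). *Zg16* passed it without CAC mouse 4 (adjusted p = 0.415; adjusted p = 0.0118 without it). *Creb3l1*, a transcription factor of secretory cells, fell by 1.10, while *Spink4* and *Foxa3* rose by 0.71 and 0.72. Of 25 enteroendocrine genes, 23 were tested, with 2 called higher, 4 called lower and a median log2 fold change of -0.31 (called without mice 1 to 6 in turn: 0, 0, 0, 8, 1 and 1). *Insl5*, a hormone of the colon's L cells, had 169, 164 and 139 CPM and 85.3, 44.3 and 45.3 CPM (log2 fold change -1.43, adjusted p = 0.0170). *Isl1*, a transcription factor of hormone cells, rose from 2.44, 1.49 and 1.94 to 3.96, 5.90 and 9.18 CPM, and *Chga* (86.5, 93.7 and 85.8 and 134, 116 and 67.5 CPM) overlapped. Among 22 tuft cell genes, 18 could be tested, 0 were called higher and 4 lower, and the median log2 fold change was -0.29 (called without mice 1 to 6 in turn: 2, 0, 0, 5, 2 and 2). *Dclk1* had 12.4, 13.8 and 19.95 CPM and 5.55, 6.94 and 4.83 CPM (log2 fold change -1.41, adjusted p = 0.0138) and *Trpm5*, the cation channel of taste and tuft cells, 6.98, 9.74 and 10.4 CPM and 4.33, 3.81 and 3.22 CPM (log2 fold change -1.25, adjusted p = 0.0183), with the groups apart in both. *Rgs13* and *Gnat3* were the other 2 that fell. With at least 10 counts in each library the median of the tuft list had the other sign. Its summed level did not fall, at 83.9, 84.1 and 105 CPM in naive and 88.004, 106 and 131 CPM in CAC mice, led on average by *Avil*. The tested intestinal identity factors were 27 of 28, and 2 of them were called higher and 5 lower, at a median log2 fold change of -0.24 (called without mice 1 to 6 in turn: 2, 2, 5, 12, 7 and 4). *Nr5a2*, a nuclear receptor of crypts, had 68.2, 72.7 and 67.6 CPM and 23.8, 15.5 and 12.5 CPM (log2 fold change -2.004, adjusted p = 0.00495). *Foxa2* had 83.9, 66.4 and 68.4 CPM and 34.6, 28.5 and 28.2 CPM (log2 fold change -1.26, adjusted p = 0.00492). The vitamin D receptor gene *Vdr* fell by 0.90. *Cdx2* (100.1, 79.6 and 119 and 81.3, 86.7 and 54.7 CPM) overlapped. Of the 21 called genes whose fold change or test is given, *Cftr*, *Scnn1b*, *Nr5a2* and *Foxa2* were called in all 6 fits that left out 1 mouse, and the others lost the call in at least 1, namely 15 without naive mouse 1, 16 without naive mouse 2, 14 without naive mouse 3, 2 without CAC mouse 4, 9 without CAC mouse 5 and 9 without CAC mouse 6, with a highest adjusted p of 0.174 for *Spink4* without naive mouse 2.

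In the stroma lists, part of the fibroblast genes and of the matrix metalloproteinases rose, part of the enteric nerve genes fell, and smooth muscle genes were lower in CAC mice 5 and 6 but not in CAC mouse 4. Against the 8.04% of all genes called higher and the 6.92% called lower, the collagens had a smaller share higher and the smooth muscle genes a smaller share lower. Of 33 fibroblast genes, 32 were tested, with 10 called higher, 1 called lower and a median log2 fold change of 0.72 (called without mice 1 to 6 in turn: 5, 3, 3, 16, 8 and 10). *Mgp*, an inhibitor of calcification made by fibroblasts and vessels, had 8.96, 8.41 and 10.3 CPM in naive and 41.8, 110.0 and 240.0 CPM in CAC mice (log2 fold change 3.82, adjusted p = 0.0168). *Adamdec1*, a protease of fibroblasts and macrophages of the gut, had 24.8, 11.1 and 22.1 CPM and 70.9, 108 and 99.4 CPM (log2 fold change 2.26, adjusted p = 0.00908). *Foxl1*, of the fibroblasts that lie next to crypts, had 1.12, 0.615 and 0.705 CPM and 3.17, 3.68 and 7.36 CPM (log2 fold change 2.53, adjusted p = 0.0139). *Vim*, vimentin of mesenchymal and immune cells, had 53.2, 47.8 and 60.9 CPM and 137, 166 and 191 CPM (log2 fold change 1.61, adjusted p = 0.00293). None of these overlapped between groups, and several are shared with immune cells or vessels, whose part was not tested. Among 36 activated stroma genes, 28 could be tested, 9 were called higher and 0 lower, and the median log2 fold change was 0.75 (called without mice 1 to 6 in turn: 3, 0, 0, 19, 6 and 7). Of the 9, 4 had a naive mean under 1 CPM. Among members with a naive mean of at least 1 CPM, an alternative chosen after seeing the data, 5 of 23 were higher. The tested collagens were 22 of 23, and 1 of them was called higher and 0 lower, at a median log2 fold change of 0.44 (called without mice 1 to 6 in turn: 0, 0, 0, 9, 0 and 0). That 1 was *Col18a1*, a collagen of basement membranes, with 16.3, 12.97 and 11.4 CPM and 21.7, 68.8 and 53.2 CPM (log2 fold change 1.82, adjusted p = 0.0295). *Col1a1* had 61.8, 39.8 and 65.8 CPM and 40.9, 143 and 86.03 CPM, within the naive range in CAC mouse 4 (adjusted p = 0.312; adjusted p = 0.0367 without that mouse). Of 18 matrix metalloproteinases and inhibitors, 16 were tested, with 9 called higher, 0 called lower and a median log2 fold change of 1.42 (called without mice 1 to 6 in turn: 1, 0, 1, 13, 5 and 5). Of the 9, 6 had a naive mean under 1 CPM and enter the test through their counts in CAC mice. Among members with a naive mean of at least 1 CPM, 3 of 9 were higher, against 6.40% of all such genes. *Mmp10*, a stromelysin, had 0.204, 0 and 0.176 CPM and 1.53, 14.7 and 14.1 CPM (log2 fold change 6.22, adjusted p = 0.0185). *Mmp13*, a collagenase, had 1.02, 0.564 and 0.705 CPM and 2.75, 14.9 and 9.95 CPM (log2 fold change 3.59, adjusted p = 0.0160). Their inhibitor *Timp1* rose with them, from 0.509, 0.513 and 0.969 to 1.85, 5.54 and 8.20 CPM. In these genes CAC mouse 4 lay above the naive mice and several-fold below the other CAC mice.

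Among 25 smooth muscle genes, 25 could be tested, 0 were called higher and 1 lower, and the median log2 fold change was -0.75 (called without mice 1 to 6 in turn: 0, 0, 0, 15, 0 and 0). The list summed to 7272, 4130 and 5864 CPM in naive and 5774, 2643 and 2984 CPM in CAC mice, led by *Tpm1*. *Myh11*, the myosin of smooth muscle, had 510.0, 367 and 559 CPM and 468, 198 and 162 CPM (adjusted p = 0.220; adjusted p = 0.00286 without CAC mouse 4), and *Acta2* 727, 411 and 563 CPM and 462, 195 and 224 CPM (adjusted p = 0.118; adjusted p = 0.00576 without it). CAC mouse 4 lay among the naive mice in both, and CAC mice 5 and 6 below them. For the lists that follow, 8.04% of all genes tested were called higher and 6.92% lower. The tested enteric neuron and glia genes were 21 of 24, and 0 of them were called higher and 7 lower (33.3%), at a median log2 fold change of -1.45 (called without mice 1 to 6 in turn: 0, 0, 0, 16, 3 and 0). The list summed to 214, 139 and 201 CPM in naive and 113, 93.2 and 121 CPM in CAC mice, led by *Vip*. *Uchl1*, a neuronal hydrolase, had 24.5, 13.9 and 19.2 CPM and 10.9, 5.67 and 8.83 CPM (log2 fold change -1.18, adjusted p = 0.0337). *Prph*, a filament of peripheral neurons, had 18.3, 11.4 and 18.4 CPM and 6.66, 1.54 and 3.71 CPM (log2 fold change -2.02, adjusted p = 0.0336). The summed levels of muscle and nerve genes differed between libraries, among naive mice too, and the part of the outer wall's share of a library in the other results was not tested. Of 22 endothelial genes, 21 were tested, with 4 called higher, 0 called lower and a median log2 fold change of 0.13 (called without mice 1 to 6 in turn: 2, 0, 1, 6, 3 and 2). *Pecam1*, found on all endothelium, had 14.1, 16.8 and 12.3 CPM and 13.6, 15.98 and 12.1 CPM, overlapping. *Prox1*, a transcription factor of lymphatic endothelium that is also found in epithelial tumour and hormone cells, had 1.88, 2 and 2.77 CPM and 18.2, 45.8 and 76.7 CPM (log2 fold change 4.39, adjusted p = 0.00834). *Icam1* and *Vcam1*, adhesion molecules for leukocytes, rose by 2.81 and 1.75. Among 39 Hox genes, 22 could be tested, 3 were called higher and 1 lower, and the median log2 fold change was 0.12, of the other sign with DESeq2 (called without mice 1 to 6 in turn: 0, 0, 0, 5, 1 and 4). *Hoxa9* rose by 0.66, with 50.96, 59.9 and 55.5 CPM and 86.1, 82.2 and 94.7 CPM. Of the 14 called genes whose fold change or test is given, *Adamdec1* and *Vim* were called in all 6 fits that left out 1 mouse, and the others lost the call in at least 1, namely 9 without naive mouse 1, 12 without naive mouse 2, 11 without naive mouse 3, 4 without CAC mouse 5 and 5 without CAC mouse 6, with a highest adjusted p of 0.109 for *Col18a1* without naive mouse 2.

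Over the members tested, most of the immune lists had a larger share called higher than the 8.04% of all genes, while the B cell and type I interferon lists were near it. Members near 0 in naive mice enter the test through their counts in CAC mice, so these shares depend in part on the filter. An alternative chosen after seeing the data keeps only tested genes with a naive mean of at least 1 CPM, of which 6.40% were called higher. Under it 12 of 20 macrophage and monocyte genes, 16 of 30 interferon-γ and MHC class II genes, 11 of 22 complement genes, 6 of 16 chemokines and 6 of 26 interleukins and receptors were higher. Of cytotoxic genes 2 of 4, of dendritic cell genes 3 of 4 and of T cell genes 1 of 5 were, since 19 of the 20 T cell genes called had less than 1 CPM in naive mice. In the lists of neutrophils, macrophages, dendritic cells and T cells no member was called lower. The tested neutrophil genes were 9 of 24, and 9 of them were called higher and 0 lower, at a median log2 fold change of 3.94 (called without mice 1 to 6 in turn: 2, 0, 0, 15, 5 and 6). Most tested members were near 0 in naive mice. With no filter 7 of the 24 members were called, and with at least 10 counts in each library 1 was. The list summed to 214, 203 and 141 CPM in naive and 320.1, 431 and 405 CPM in CAC mice, most of it *Ly6g*, which has close paralogs and was already abundant in naive colon, and *Elane* and *Ngp* were at 0 in all 6 mice. *S100a8*, a subunit of calprotectin, had 0.0509, 0 and 0.264 CPM in naive and 0.581, 18.97 and 14.01 CPM in CAC mice (log2 fold change 6.57, adjusted p = 0.0327). *S100a9* had 0.255, 0 and 0.308 CPM and 0.793, 22.7 and 12.5 CPM (log2 fold change 5.92, adjusted p = 0.0342). *Cxcl5*, a chemokine that draws neutrophils, had 2.24, 1.59 and 1.76 CPM and 9.04, 169 and 157 CPM (log2 fold change 5.90, adjusted p = 0.0224). In these 3 genes CAC mice 5 and 6 carried most of the signal, and CAC mouse 4 lay above the naive mice but far below them. Of 30 macrophage and monocyte genes, 25 were tested, with 16 called higher, 0 called lower and a median log2 fold change of 1.90 (called without mice 1 to 6 in turn: 3, 0, 2, 21, 5 and 6). The list summed to 272, 239 and 268 CPM in naive and 313, 934 and 770.0 CPM in CAC mice. *Nos2*, the inducible nitric oxide synthase, had 5.70, 2.21 and 5.77 CPM and 11.5, 315 and 133 CPM (log2 fold change 5.06, adjusted p = 0.0350). It thus made up a large part of the list's sum in CAC mouse 5. *Lyz2*, also on the Paneth list, held 125 and 153 CPM in CAC mice 5 and 6. The part of other cell types in the sum was not tested. *C1qa*, the complement component of tissue macrophages, had 11.4, 6.87 and 10.6 CPM and 18.7, 45.4 and 54.5 CPM (log2 fold change 2.04, adjusted p = 0.0229). *Cd68* rose by 1.67, while *Adgre1*, which encodes F4/80, had 1.99, 2 and 2.42 CPM and 1.90, 4.63 and 4.06 CPM and passed the test without CAC mouse 4 (adjusted p = 0.206; adjusted p = 0.0228 without it). Among 15 dendritic cell genes, 10 could be tested, 7 were called higher and 0 lower, and the median log2 fold change was 1.75 (called without mice 1 to 6 in turn: 3, 0, 1, 8, 4 and 5). *Ccl22*, a dendritic cell chemokine that attracts regulatory T cells, had 0.458, 0.256 and 0.220 CPM and 2.06, 4.58 and 3.01 CPM (log2 fold change 3.36, adjusted p = 0.00806). The tested mast cell and eosinophil genes were 9 of 19, and 6 of them were called higher and 1 lower, at a median log2 fold change of 2.83 (called without mice 1 to 6 in turn: 2, 1, 2, 9, 4 and 5). Of those higher, 4 had a naive mean under 1 CPM, and with at least 10 counts in each library 3 members were called. *Mcpt1* and *Mcpt2*, proteases of mucosal mast cells with close paralogs, rose by 3.93 and 4.74, and *Alox15* of eosinophils and macrophages by 2.998. *Kit*, which marks mast cells and the pacemaker cells of gut muscle, fell from 41.1, 46.3 and 54.4 to 20.9, 21.6 and 18.1 CPM.

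Of 30 T cell genes, 28 were tested, with 20 called higher, 0 called lower and a median log2 fold change of 2.18 (called without mice 1 to 6 in turn: 5, 0, 11, 24, 12 and 13). *Zap70*, a kinase of the T cell receptor, had 0.662, 0.462 and 0.925 CPM and 3.70, 5.99 and 9.67 CPM (log2 fold change 3.21, adjusted p = 0.00821). *Ctla4*, a brake on T cells, had 0.0509, 0.0513 and 0.0881 CPM and 0.581, 2.13 and 1.89 CPM (log2 fold change 4.44, adjusted p = 0.0112). *Foxp3*, the factor of regulatory T cells, had 0.102, 0.103 and 0 CPM and 0.581, 1.68 and 1.05 CPM (log2 fold change 3.97, adjusted p = 0.0178). All 3 genes were under 1 CPM in naive mice, so their folds rest on few counts there. *Cd3e* (0.0509, 0.308 and 1.19 and 1.06, 2.995 and 2.45 CPM) overlapped and did not pass. *Tnfrsf8*, which encodes CD30 of activated lymphocytes, had 1.58, 1.13 and 1.45 CPM and 16.3, 16.9 and 17.4 CPM (log2 fold change 3.60, adjusted p = 4.4e-04), nearly the same in the 3 CAC mice. Among 20 cytotoxic and intraepithelial lymphocyte genes, 11 could be tested, 4 were called higher and 0 lower, and the median log2 fold change was 1.56 (called without mice 1 to 6 in turn: 1, 0, 0, 10, 2 and 3). *Gzma* rose from 0.305, 0.256 and 1.72 to 1.96, 11.7 and 14.1 CPM. The tested B cell and germinal centre genes were 22 of 23, and 2 of them were called higher and 0 lower, at a median log2 fold change of 1.54 (called without mice 1 to 6 in turn: 16, 0, 0, 2, 0 and 0). The list summed to 97.2, 33.9 and 35.8 CPM in naive and 148, 94.4 and 129.6 CPM in CAC mice, so naive mouse 1 lay in the range of the CAC mice. Of 20 plasma cell genes, 19 were tested, with 7 called higher, 1 called lower and a median log2 fold change of 1.77 (called without mice 1 to 6 in turn: 4, 1, 5, 11, 5 and 3). The IgA heavy chain gene *Igha* had 183, 178 and 384 CPM and 575, 2139 and 1829 CPM (log2 fold change 2.61, adjusted p = 0.0280). *Jchain*, which joins IgA and IgM into polymers, had 42.8, 37.5 and 89.98 CPM and 195, 441 and 406 CPM (log2 fold change 2.61, adjusted p = 0.0163). *Ighg1*, of IgG1, had 0.815, 0.615 and 2.29 CPM and 9.51, 7.08 and 21.2 CPM (log2 fold change 3.31, adjusted p = 0.0185). *Pigr*, the epithelial receptor that carries IgA into the lumen, was the member that fell, from 5323, 5965 and 5360 to 2879, 4286 and 3266 CPM (log2 fold change -0.67, adjusted p = 0.0369). *Ccl28*, an epithelial chemokine for IgA plasma cells, fell with it by 0.86.

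Among 36 chemokines, 19 could be tested, 8 were called higher and 2 lower, and the median log2 fold change was 1.23 (called without mice 1 to 6 in turn: 5, 0, 4, 20, 6 and 6). The tested interleukins and receptors were 33 of 56, and 13 of them were called higher and 1 lower, at a median log2 fold change of 0.73 (called without mice 1 to 6 in turn: 3, 0, 0, 24, 6 and 4). *Il1b* had 0.713, 0.410 and 0.705 CPM and 1.85, 19.3 and 10.5 CPM. *Il1rn*, the receptor antagonist, rose by 0.64 and the decoy receptor gene *Il1r2* by 3.97, whereas the signalling receptor gene *Il1r1* fell by 0.76. Of 38 TNF superfamily genes, 29 were tested, with 11 called higher, 1 called lower and a median log2 fold change of 1.32 (called without mice 1 to 6 in turn: 9, 1, 5, 17, 7 and 7). *Tnfrsf11b*, which encodes osteoprotegerin, the decoy for RANKL, had 1.22, 0.462 and 1.10 CPM and 14.5, 80.3 and 101 CPM (log2 fold change 6.11, adjusted p = 0.0119), while the RANKL receptor gene *Tnfrsf11a* fell from 132, 138 and 138 to 76.7, 79.4 and 56.7 CPM (log2 fold change -0.94, adjusted p = 0.0104). *Tnf* itself (1.17, 2 and 3.44 and 2.06, 9.85 and 18.2 CPM) passed without CAC mouse 4 (adjusted p = 0.0977; adjusted p = 0.00592 without it). Among 38 genes of the interferon-γ response and MHC class II, 36 could be tested, 19 were called higher and 0 lower, and the median log2 fold change was 2.27 (called without mice 1 to 6 in turn: 5, 0, 4, 25, 4 and 4). *H2-Aa*, an MHC class II chain, had 53.1, 25.5 and 70.8 CPM and 114, 577 and 583 CPM (log2 fold change 3.09, adjusted p = 0.0320). *Ubd*, a ubiquitin-like protein induced by interferon-γ, had 4.12, 2.97 and 4.89 CPM and 20.5, 127 and 151 CPM (log2 fold change 4.63, adjusted p = 0.0170). The list summed to 1867, 1673 and 1977 CPM in naive and 2408, 6444 and 5672 CPM in CAC mice, led by *Cd74*, so that CAC mouse 4 lay nearer to the naive mice than to CAC mice 5 and 6. The tested MHC class I presentation genes were 26 of 26, and 10 of them were called higher and 0 lower, at a median log2 fold change of 0.55 (called without mice 1 to 6 in turn: 0, 0, 5, 17, 1 and 1). *Psmb8*, a subunit of the immunoproteasome, had 30.8, 31.999 and 59.1 CPM and 83.7, 126 and 132 CPM (log2 fold change 1.49, adjusted p = 0.0210), and *H2-K1* rose by 0.61. Since MHC class I genes are near copies of each other, reads may be shared out wrongly among them. Of 29 type I interferon response genes, 29 were tested, with 2 called higher, 0 called lower and a median log2 fold change of 0.64 (called without mice 1 to 6 in turn: 0, 0, 2, 8, 1 and 1). *Zbp1*, a sensor of nucleic acids, rose by 1.68 and *Ifit2* by 2.99. Among 26 complement genes, 22 could be tested, 11 were called higher and 0 lower, and the median log2 fold change was 1.26 (called without mice 1 to 6 in turn: 6, 1, 2, 17, 9 and 10). *Cd55*, which protects cells from complement, had 39.6, 40.3 and 38.1 CPM and 97.7, 104 and 89.96 CPM (log2 fold change 1.31, adjusted p = 0.00159), and *C2* rose by 2.12. The tested NF-kB, STAT and inflammatory enzymes were 36 of 36, and 14 of them were called higher and 1 lower, at a median log2 fold change of 0.70 (called without mice 1 to 6 in turn: 2, 0, 1, 24, 3 and 3). *Socs3*, a feedback inhibitor of STAT3, had 7.79, 5.13 and 6.69 CPM and 15.8, 111 and 56.5 CPM (log2 fold change 3.23, adjusted p = 0.0281), and *Ptgs2* rose by 1.86. Of the 37 called genes whose fold change or test is given, *Kit*, *Tnfrsf8* and *Cd55* were called in all 6 fits that left out 1 mouse, and the others lost the call in at least 1, namely 28 without naive mouse 1, 34 without naive mouse 2, 23 without naive mouse 3, 12 without CAC mouse 5 and 16 without CAC mouse 6, with a highest adjusted p of 0.153 for *Gzma* without naive mouse 2.

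In metabolism, part of the enzymes of the citrate cycle and of fatty acid oxidation fell. Of 29 citrate cycle genes, 29 were tested, with 0 called higher, 13 called lower and a median log2 fold change of -0.37 (called without mice 1 to 6 in turn: 1, 0, 1, 18, 6 and 2). Over all genes tested 6.92% were called lower and 8.04% higher. *Cs*, citrate synthase, had 956, 909.8 and 911 CPM in naive and 739.8, 609.8 and 499 CPM in CAC mice (log2 fold change -0.59, adjusted p = 0.0421). *Me2*, which makes pyruvate from malate, had 174, 174 and 164 CPM and 107, 117 and 105 CPM (log2 fold change -0.64, adjusted p = 0.0116). The groups did not overlap in *Cs* and *Me2*, and both changes were less than 2-fold. Among 53 fatty acid oxidation and ketogenesis genes, 50 could be tested, 0 were called higher and 16 lower, and the median log2 fold change was -0.40 (called without mice 1 to 6 in turn: 2, 0, 5, 24, 10 and 7). *Hadha*, of the trifunctional protein of β-oxidation, had 334, 342 and 319.9 CPM and 229, 242 and 207 CPM (log2 fold change -0.55, adjusted p = 0.0193). *Acsm3*, which activates short and medium-chain fatty acids, had 252, 278 and 258 CPM and 122, 96.1 and 59.8 CPM (log2 fold change -1.50, adjusted p = 0.0117). The coactivator genes *Ppargc1a* and *Ppargc1b* fell by 0.87 and 1.34. The tested nuclear oxidative phosphorylation genes were 90 of 95, and 1 of them was called higher and 4 lower, at a median log2 fold change of -0.10 (called without mice 1 to 6 in turn: 0, 0, 0, 16, 2 and 0). The share called lower, 4.44%, was under the 6.92% of all genes. Of 13 mitochondrial genome genes, 13 were tested, with 2 called higher, 0 called lower and a median log2 fold change of 0.32 (called without mice 1 to 6 in turn: 0, 0, 0, 0, 5 and 0). *mt-Co1*, a subunit of complex IV, had 12351, 13893 and 10494 CPM and 22035, 15810 and 18943 CPM (log2 fold change 0.63, adjusted p = 0.0494), highest in CAC mouse 4. Among 83 cytosolic ribosomal proteins, 80 could be tested, 2 were called higher and 0 lower, and the median log2 fold change was 0.29 (called without mice 1 to 6 in turn: 0, 0, 0, 2, 7 and 0).

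The tested glycolysis and hypoxia genes were 36 of 36, and 5 of them were called higher and 2 lower, at a median log2 fold change of 0.15 (called without mice 1 to 6 in turn: 5, 1, 2, 14, 4 and 4). For comparison, 8.04% of all genes tested were called higher and 6.92% lower. The share higher in the xenobiotic list below, 9.72%, was near the first of these. *Slc16a3*, the lactate exporter MCT4, had 11.05, 10.2 and 9.56 CPM and 34.99, 64.5 and 88.3 CPM (log2 fold change 2.61, adjusted p = 0.00763). *Bnip3*, a mitophagy receptor induced by hypoxia, had 11.4, 11.3 and 9.78 CPM and 35.8, 30.3 and 30.4 CPM (log2 fold change 1.57, adjusted p = 0.00195). *Ldha* (1305, 1282 and 1177 and 1266, 1261 and 1253 CPM), *Slc2a1* (230.5, 209 and 188 and 196, 233 and 198 CPM) and *Hk2* (289.9, 179 and 177 and 119, 524 and 329 CPM) overlapped between groups, and without CAC mouse 4 *Hk2* passed the test (adjusted p = 0.0434). Of 83 xenobiotic and steroid metabolism genes, 72 were tested, with 7 called higher, 17 called lower and a median log2 fold change of -0.27 (called without mice 1 to 6 in turn: 11, 2, 7, 38, 13 and 16). *Hsd11b2*, which inactivates glucocorticoids, fell by 0.64 and the glucuronosyltransferase gene *Ugt2b34* by 0.58, whereas *Abcc2*, a pump for conjugated compounds, rose from 1.37, 1.23 and 1.23 to 6.13, 15.4 and 29.004 CPM and *Gsta1* by 1.83. *Cyp2c55*, an abundant cytochrome of the colon, ran from 533, 392 and 309 CPM in naive to 895, 386 and 81.8 CPM in CAC mice, highest in CAC mouse 4 and lowest in CAC mouse 6. Among 31 cholesterol synthesis and uptake genes, 30 could be tested, 2 were called higher and 2 lower, and the median log2 fold change was 0.12 (called without mice 1 to 6 in turn: 2, 2, 1, 7, 2 and 2). At 6.67% each way, both shares were near those of all genes, so the single genes called are not a change of the list. *Abcg5* and *Abcg8*, the subunits of the sterol exporter, rose by 1.46 and 1.67. The tested polyamine, nucleotide and amino acid metabolism genes were 46 of 48, and 6 of them were called higher and 9 lower, at a median log2 fold change of 0.15 (called without mice 1 to 6 in turn: 5, 4, 6, 26, 8 and 7). *Slc6a14*, an amino acid importer of the colon, had 1036, 905 and 877 CPM and 353, 302 and 263 CPM (log2 fold change -1.62, adjusted p = 0.00239), and *Ido1*, which degrades tryptophan, rose from 0.866, 1.23 and 6.56 to 15.5, 55.7 and 47.01 CPM. Of 25 metallothioneins and metal transport genes, 25 were tested, with 6 called higher, 3 called lower and a median log2 fold change of 0.10 (called without mice 1 to 6 in turn: 4, 1, 4, 13, 6 and 6). Of the 6, 4 had a naive mean under 1 CPM and enter the test through their counts in CAC mice. Among members with a naive mean of at least 1 CPM, 2 of 21 were higher (9.52%) and 3 lower (14.3%). Of all such genes 6.40% were higher and 7.59% lower. *Slc30a2*, a zinc exporter of secretory cells, had 0.255, 0.308 and 0.617 CPM and 12.6, 35.3 and 99.2 CPM (log2 fold change 6.90, adjusted p = 0.0120), *Mt3* rose by 5.06 and *Mt1* by 0.82. Among 25 endoplasmic reticulum stress genes, 24 could be tested, 2 were called higher and 1 lower, and the median log2 fold change was -0.06 (called without mice 1 to 6 in turn: 1, 0, 0, 7, 2 and 3). The share higher, 8.33%, was near that of all genes and the share lower, 4.17%, under it. The single genes called are therefore not a change of the list. *Atf4* rose by 0.73 and the stress sensor gene *Ern1* fell by 0.57.

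Most members of the circadian clock were called, 52.6% higher and 26.3% lower, against 8.04% and 6.92% of all genes tested. The tested circadian clock genes were 19 of 19, and 10 of them were called higher and 5 lower, at a median log2 fold change of 0.81 (called without mice 1 to 6 in turn: 7, 7, 6, 15, 11 and 13). *Dbp* (chromosome 7, 45705247 to 45710203), an output gene of the clock, had 1.73, 1.90 and 1.41 CPM in naive and 99.9, 71.8 and 47.4 CPM in CAC mice (log2 fold change 5.44, adjusted p = 6.3e-04). *Tef*, its relative, had 15.1, 19.6 and 13.1 CPM and 185, 158 and 117 CPM (log2 fold change 3.27, adjusted p = 9.5e-04). *Ciart*, a repressor of the clock, had 0.356, 0.359 and 0.352 CPM and 23.6, 11.1 and 8.20 CPM (log2 fold change 5.31, adjusted p = 0.00255). *Arntl*, which encodes the activator BMAL1, had 78.4, 92.8 and 77.95 CPM and 14.2, 12.5 and 8.83 CPM (log2 fold change -2.80, adjusted p = 8.1e-04), and *Clock*, its partner, fell by 0.50. In *Dbp*, *Tef* and *Ciart* CAC mouse 4 was the highest, and no gene of these overlapped between groups. The hour at which each colon was taken is not given in the sources used here, and its part in these values was not tested. Of the 27 called genes whose fold change or test is given, *Bnip3*, *Abcg5*, *Slc6a14*, *Dbp*, *Tef*, *Ciart* and *Arntl* were called in all 6 fits that left out 1 mouse, and the others lost the call in at least 1, namely 12 without naive mouse 1, 19 without naive mouse 2, 11 without naive mouse 3, 1 without CAC mouse 4, 5 without CAC mouse 5 and 8 without CAC mouse 6, with a highest adjusted p of 0.192 for *mt-Co1* without naive mouse 3.

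To see which changes hold in CAC mouse 4, the least changed of the treated mice, genes were called in a fit of CAC mice 5 and 6 against the 3 naive mice and then looked up in CAC mouse 4, which that fit did not use. Without it 2241 of 15872 genes were called higher (14.1%) and 1839 lower (11.6%). A change was taken as held where log2 CPM in CAC mouse 4 lay beyond all naive mice on the same side, by at least 0.5 of the mean difference of CAC mice 5 and 6 from the naive mean. It was held for 1058 of the genes higher (47.2%) and 1058 of those lower (57.5%). Over all genes, split by the sign of the fit, the shares were 44.3% and 49.9%. Another 669 of the 2241 and 405 of the 1839 genes lay beyond the naive mice by less, against 10.9% and 7.79% of all genes. Within the naive range lay 16.5% and 15.1%, against 27.5% and 25.4% of all genes. Of the genes called, 6.47% and 5.38% lay beyond the naive mice on the other side, against 17.4% and 16.9% of all genes. The median difference of CAC mouse 4 was 47.0% of that of the other CAC mice for genes higher and 59.9% for genes lower. The naive mice are the same on both sides of the look-up, and 1 mouse allows no test.

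**Figure D3:**
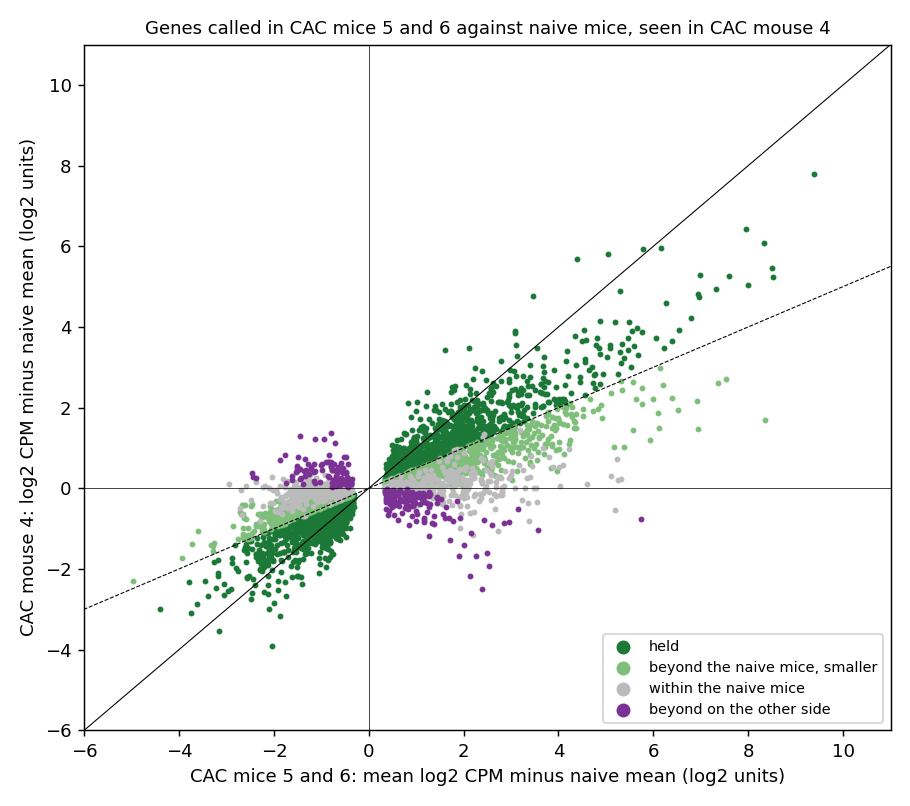
For the 4080 genes called in CAC mice 5 and 6 against naive mice, the log2 CPM of CAC mouse 4 minus the naive mean (vertical) against the same for the mean of CAC mice 5 and 6 (horizontal), in log2 units. The solid line marks equal differences and the dashed line a difference 0.5 times as large, and the colours mark genes held (1058 higher and 1058 lower), beyond the naive mice by less, within the naive range, or beyond it on the other side.

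Of all genes called without CAC mouse 4, 47.2% of those higher and 57.5% of those lower were held. All 15 clock genes called without it, 10 higher and 5 lower, were held. Of the T cell genes 22 of 24 were held, of the keratin list 8 of 9 that were higher and 0 of 1 that was lower, of the genes of fatty acid oxidation that were lower 17 of 22 and of the proliferation genes that were lower 9 of 9. Of the Wnt list 13 of 23 were held and of the citrate cycle genes that were lower 10 of 16, each a little above the share of all genes called. Of macrophage and monocyte genes 4 of 21 were held, of neutrophil genes 4 of 15, of interferon-γ and MHC class II genes 7 of 25 and of metalloproteinases and their inhibitors 2 of 13. Of the smooth muscle genes that were lower 1 of 15 was held, and 11 lay within the naive range, and of the collagens that were higher 0 of 7 were. The differences between lists were not tested.

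Among named genes with a mean of at least 1 CPM whose change was held, *Mt4*, *Prss22*, *Defa24* and *Sp5* were the 4 with the largest increase and *Trpm6*, *Dbh*, *Galnt17*, *Slc37a2* and *Nmu* the 5 with the largest decrease in CAC mice 5 and 6. Of such genes that lay within the naive range in CAC mouse 4, the largest increases were those of *Cxcl2*, *Ccl7*, *Lrg1*, *Mab21l3* and *Cxcl9*. *Cxcl2*, a chemokine for neutrophils, had 0.255, 0.103 and 0.308 CPM in naive and 0.264, 6.26 and 24.4 CPM in CAC mice, and *Ccl7*, for monocytes, 0.305, 0.103 and 0.220 CPM and 0.106, 14.7 and 8.06 CPM, and neither had enough counts for the test over all 6 mice. *Lrg1*, a secreted glycoprotein of the acute phase, had 1.43, 4.36 and 2.51 CPM and 3.12, 56.1 and 144 CPM (adjusted p = 0.0543; adjusted p = 0.00514 without CAC mouse 4), and *Cxcl9*, a T cell chemokine induced by interferon-γ, 0.509, 0.769 and 2.77 CPM and 2.17, 33.2 and 13.7 CPM (adjusted p = 0.0688; adjusted p = 0.0133 without it). *Lcn2*, an antimicrobial siderophore binder, was lower in CAC mouse 4 than in any naive mouse, with 0.967, 1.23 and 0.969 CPM and 0.581, 33.3 and 113 CPM (adjusted p = 0.0592; adjusted p = 0.00378 without it). The largest decreases within the naive range were those of *Tacr2*, *Amph*, *Gfap*, *Myocd* and *Tmod1*. *Myocd*, the master regulator of smooth muscle genes, had 1.32, 1.08 and 2.20 CPM and 1.11, 0.227 and 0.350 CPM (adjusted p = 0.132; adjusted p = 0.0131 without CAC mouse 4), and *Gfap*, of enteric glia, 4.28, 1.95 and 2.55 CPM and 2.01, 0.363 and 0.701 CPM (adjusted p = 0.127; adjusted p = 0.0107 without it).

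A set of 124 genes, 69 higher and 55 lower, was called with all 6 mice and again whichever single mouse was dropped. The adjusted p was 0.0488 at most. All 124 were held in CAC mouse 4, which follows in part from the fits without CAC mouse 5 or 6. Of these, 36 are on a list described here. They include the clock genes *Arntl*, *Npas2*, *Nr1d2*, *Dbp*, *Tef* and *Ciart*, the epithelial genes *Notum*, *Krt13*, *Krt14*, *Slpi*, *Cldn8*, *Cftr* and *Slc6a14*, and of the immune lists *Mzb1*, *Kit*, *Tnfrsf8* and *Cd55*. The following were picked from this set after their values were seen. *Capg*, an actin-capping protein, had 59.4, 45.6 and 65.1 CPM in naive and 226, 251 and 293 CPM in CAC mice (log2 fold change 2.18, adjusted p = 0.00159). *Anxa8*, an annexin of the fetal-like list, had 105, 146 and 91.8 CPM and 381, 625 and 536 CPM (log2 fold change 2.17, adjusted p = 0.00494). *Pmepa1*, a feedback inhibitor of TGF-β, had 37.6, 33.6 and 32.5 CPM and 115, 189 and 232 CPM (log2 fold change 2.37, adjusted p = 0.00488). *Nlrp6*, an inflammasome sensor of the intestinal epithelium, had 317, 341 and 325 CPM and 152, 134 and 98.1 CPM (log2 fold change -1.35, adjusted p = 0.00664). *Aldh1b1*, a mitochondrial aldehyde dehydrogenase, had 323, 403 and 395 CPM and 166, 154 and 112 CPM (log2 fold change -1.38, adjusted p = 0.00738). *Pnliprp2*, a lipase, had 2.60, 3.13 and 3.39 CPM and 41.2, 61.5 and 124 CPM (log2 fold change 4.63, adjusted p = 0.00492). In all of these the 3 CAC mice lay on one side of the 3 naive mice, as in 2308 of all 2310 genes called.

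Promoter windows (250 bases before to 50 after a gene's start, RefSeq, GRCm38.p6) were matched by symbol for 11296 of the genes tested, with 14427 windows. They were searched on both strands for 7 motifs. TGANTCA, the site of AP-1, was in 11.5% of 792 windows of genes called higher by at least 2-fold, in 7.82% of 371 windows of genes called lower by at least 2-fold and in 5.69% of all windows. The TCF/LEF site ATCAAAG, through which Wnt acts, was in 4.17%, 4.04% and 2.59%. The NF-kB letters GGGANTTTC were in 2.15%, 1.35% and 0.998%, GAAANNGAA, of interferon-stimulated response elements, in 9.72%, 7.55% and 7.24%, and the STAT letters TTCNNNGAA in 9.85%, 5.12% and 6.81%. For CAAAGTC (HNF4) the shares were 7.32%, 4.85% and 4.15%, and for TTTATTG (CDX) 2.90%, 3.50% and 2.65%. A match is a description of the letters, not a bound site. The windows of *Mmp7*, *Mmp10*, *Mmp12* and *Mmp13* are shown because these genes lie near each other on chromosome 9. They were also picked because each was called higher and holds the AP-1 letters. Their levels followed different patterns over CAC mice 4, 5 and 6, and a shared cause was not tested. The window of *Sp5* is shown as that of the Wnt-induced gene with the largest change and the TCF/LEF letters. Capitals mark AP-1 letters, in *Mmp7* also TCF/LEF letters (the second match), and in *Sp5* TCF/LEF letters on the reverse strand.
Mmp7 chr9:7691840-7692139 (+) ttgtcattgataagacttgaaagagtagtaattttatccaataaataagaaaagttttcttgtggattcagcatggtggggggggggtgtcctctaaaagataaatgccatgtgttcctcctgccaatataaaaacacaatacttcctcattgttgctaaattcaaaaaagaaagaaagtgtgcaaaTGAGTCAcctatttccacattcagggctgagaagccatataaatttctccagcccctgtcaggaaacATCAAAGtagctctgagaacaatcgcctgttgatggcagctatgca
Mmp10 chr9:7502092-7502391 (+) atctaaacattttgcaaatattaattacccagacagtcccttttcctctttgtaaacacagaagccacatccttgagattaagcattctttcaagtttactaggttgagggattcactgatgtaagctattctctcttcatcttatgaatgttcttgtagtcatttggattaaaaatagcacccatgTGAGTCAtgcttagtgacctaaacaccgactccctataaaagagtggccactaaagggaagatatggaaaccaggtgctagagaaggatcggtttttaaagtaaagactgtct
Mmp12 chr9:7347124-7347423 (+) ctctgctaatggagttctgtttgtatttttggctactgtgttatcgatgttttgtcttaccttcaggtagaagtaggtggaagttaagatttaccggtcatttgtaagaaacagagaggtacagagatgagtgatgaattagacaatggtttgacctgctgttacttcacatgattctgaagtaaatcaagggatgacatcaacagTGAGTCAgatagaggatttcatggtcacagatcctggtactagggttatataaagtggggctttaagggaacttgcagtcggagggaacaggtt
Mmp13 chr9:7272264-7272563 (+) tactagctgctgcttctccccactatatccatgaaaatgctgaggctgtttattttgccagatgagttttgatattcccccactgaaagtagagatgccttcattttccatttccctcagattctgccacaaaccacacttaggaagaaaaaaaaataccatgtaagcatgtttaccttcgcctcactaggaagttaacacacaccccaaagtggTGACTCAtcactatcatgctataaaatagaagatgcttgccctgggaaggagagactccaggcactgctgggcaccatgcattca
Sp5 chr2:70474673-70474972 (+) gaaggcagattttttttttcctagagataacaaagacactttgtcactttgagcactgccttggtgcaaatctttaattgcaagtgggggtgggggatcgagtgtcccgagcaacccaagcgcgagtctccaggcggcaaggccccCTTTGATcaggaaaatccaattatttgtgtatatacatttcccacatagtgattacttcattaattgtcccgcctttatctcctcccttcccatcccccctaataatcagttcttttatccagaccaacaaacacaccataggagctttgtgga
In *Mmp12* the window is that of the second of 2 listed starts. *Mmp12*, a macrophage elastase, had 0.611, 0.205 and 0.0881 CPM in naive and 0.634, 6.54 and 6.17 CPM in CAC mice (log2 fold change 3.88, adjusted p = 0.0410). It lost the call without any 1 of mice 1, 2, 3, 5 and 6, with a highest adjusted p of 0.149 without naive mouse 2.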

How the data were processed

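RNA-Seq of mouse colon was read from the deposited table of raw counts per gene. Per the labels and the study's methods, the authors used a Quick-RNA Mini-Prep, a NovaSeq6000 sequencer and read counting with featureCounts (Subread) on GRCm38. The processing notes name HISAT2 as the aligner, and the methods of the paper name TopHat2. Lanes L001 and L002 of each library were summed. The 3 WT Control mice (1 to 3) and 3 WT AOM-DSS mice (4 to 6) were compared with the edgeR quasi-likelihood test (edgeR 4.0.16, R 4.3.3), with TMM scaling, filterByExpr (minimum count 10, total 15), robust fitting and Benjamini-Hochberg adjustment across every tested gene, called at an adjusted p under 0.05. Adjusted p values in the text are of this test, with 3 mice in each group. The library with the fewest counts was that of CAC mouse 6, with 14142711. That library's lanes had 10119239 and 4023472 counts. After scaling to lane totals, the lanes of a library differed by about as much as counting error gives (chi-square divided by its degrees of freedom 0.995 to 1.06). Libraries of a group differed by more (16.8 to 66.3). For gene lists, members called and the median log2 fold change are given, with no set test. Members of the comparison and the lists were chosen with earlier results of these data known. Lists cover tumour epithelium, colonocyte functions, stroma, immune cells and metabolism, and markers of other tissues.

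Named genes are, for either direction, the 12 that changed most (called, mean of at least 1 CPM, groups without overlap, leaving out immunoglobulin and T cell receptor segments, *Xist*, Y chromosome genes and unnamed gene models), a written set, from each list the 3 called members with the highest mean CPM and the 3 with the largest change (all where at most 5 were called), and for CAC mouse 4 the 5 genes per direction that changed most and were held or within the naive range. Some genes that this rule names are not reported here. Alternatives were DESeq2 1.42.0, scaling by library size or upper quartile, no filter, a filter of at least 10 counts in each library, all 9 libraries in the fit, either lane alone, a minimum log2 fold change of 1, leaving out each mouse in turn, and for CAC mouse 4 a lower threshold. Nothing pairs the libraries.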

Additional observations from a re-analysis of the deposited data

How the results depend on the processing

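The numbers of genes called (2310, of which 1241 higher and 1069 lower) stayed within 1.5 times under DESeq2 (3249), scaling by library size (2284) or upper quartile (2282), no filter (2490), at least 10 counts in each library (1890), all 9 libraries in the fit (3171) and lane L001 (1932) or L002 (1803) alone. When a change of 1 or more on the log2 scale was also required, 1289 genes were called, 413 of them lower, which follows from the added threshold. Leaving out each mouse in turn gave 135 to 4080 genes, 75 to 2241 higher and 60 to 1839 lower, lowest without naive mouse 2 and highest without CAC mouse 4, and the cause was not tested. With 2 mice left in a group, fewer degrees of freedom remain. Keeping only tested genes with a naive mean of at least 1 CPM, an alternative chosen after seeing the data, left 879 genes higher and 1043 lower. Under it 9 Wnt list genes and 3 metalloproteinase list genes were still called, of 16 and 9. With 0.25 in place of 0.5 of the mean difference of CAC mice 5 and 6 as the threshold, 70.4% of genes higher and 75.4% of genes lower were held in CAC mouse 4, since the lower threshold admits more genes.

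No called gene whose fold change is given reversed its direction under any alternative. Over these genes, 1090 of 1157 values kept direction and call under alternatives with all mice, and 541 of 906 did so without 1 mouse, while the rest kept their direction only. Over the lists of tumour epithelium, colonocyte functions, stroma, immune cells and metabolism, 478 of 832 numbers of members called stayed within 1.5 times. The other 354 moved, 248 of these without 1 mouse. Lists of tissue markers and immediate early genes are not in these tallies. Of the list medians, 737 of 780 stayed within the spread and 43 moved. Among the lists tallied, the median changed sign in at least 1 alternative for EGFR ligands and receptors, Hox genes, carbonic anhydrases, cholesterol synthesis, claudins, endoplasmic reticulum stress, metallothioneins and tuft cell genes, all with medians within 0.294 of 0. Depth limits what can be said of genes with 3 counts or fewer in a library.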
